A study of Arabidopsis thaliana with 11 samples.

Results

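The genes described here are the 5 DELLA repressors, the 3 GID1 gibberellin receptors and the F-box gene SLY1 of Arabidopsis thaliana. They were picked by locus identifier, and each is measured by 1 array feature, so that 9 of 37118 features, and 9 of 32627 loci, are members. Total RNA came from dark-grown hypocotyls, the embryonic stems of seedlings, in the accession Columbia. Seeds were kept at 4 °C in the dark for 3 days, lit for 6 h at 20 °C and grown in darkness for 4 days, which made the hypocotyls 96 h old. The wild type has 6 arrays, and the group labelled atpme3-1, a loss-of-function line of the pectin methylesterase gene PME3, has 5, numbered 1, 2, 3, 5 and 6. By the labels, each array stands for a separately collected pool of about 300 hypocotyls, and the labels name a single mutant allele.

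Gibberellin is a growth hormone that drives hypocotyl elongation and seed germination. DELLA proteins are nuclear GRAS family regulators that hold growth back. The GID1 receptors bind gibberellin, then clasp a DELLA protein, and the F-box protein SLY1 directs that DELLA protein to degradation. DELLA activity is therefore set largely at the protein level, and the values below are transcript levels only. DELLA proteins are also known to raise the transcription of some receptor and gibberellin synthesis genes, a feedback that keeps the pathway in balance.

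Labels and tissue were checked first. PME3 itself read above wild type in the labelled mutant group, at a log2 intensity of 14.41 ± 0.02 (SD, n = 5) against 13.81 ± 0.06 in wild type (SD, n = 6). The fold change was 1.52 with a limma adjusted p of 4.91e-07. These probes thus showed no loss of PME3 transcript, while the label names a loss of function and gives no transcript level. The position of the probes relative to the disrupted part of the gene is unknown here. The cause of the rise was not tested, so PME3 did not settle the label. The arrays are therefore named as labelled, and every direction rests on that label. Of 3 markers of etiolated seedlings and the apical hook 0 passed the test, and PORA, which acts in chlorophyll synthesis and is typical of dark-grown seedlings, was at 15.02 ± 0.17 and 14.96 ± 0.11 (log2, SD). That count is by each gene's brightest feature; the dimmer feature of PORA was higher by 0.27 at an adjusted p of 0.027. Of 8 seed markers 7 were higher and 0 lower, and their summed intensity was 52820 to 77652 in wild type and 121284 to 147520 on labelled mutant arrays. All 7 root hair markers were lower, with sums of 42301 to 74344 and 5642 to 25163. Seed coat and endosperm markers were higher in 3 of 3 cases and green tissue markers in 2 of 6, with no lower call in either list. The green tissue calls were LHCB4.1 and RBCS1B (adjusted p 0.0446 and 0.0482), and they ended in 8 and 9 of the 11 fits without 1 array. Within wild type, arrays whose numbers lie 3 apart (1 and 4, 2 and 5, 3 and 6) differed by a mean of 0.11 to 0.14 on the log2 scale over all features, and other wild-type pairs by 0.16 to 0.26. Labelled mutant pairs 3 numbers apart differed by 0.16 to 0.17, within the 0.12 to 0.21 of the other labelled mutant pairs. The labels describe separate collections and do not say whether such arrays share a culture or a day.

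Of the 9 genes, 4 were higher on labelled mutant arrays and 0 lower at a limma adjusted p of 0.05. All 4 are DELLA repressors: GAI, RGL1, RGL2 and RGA1. Probe sequences were not available, so signal shared between these related genes was not checked. Over all features 18.8% were higher and 32.4% passed in either direction. Among features at least as bright as the dimmest of the 9 genes, 15.5% were higher. The rises were between 1.09-fold and 1.31-fold, and 0 of the 9 genes passed with a fold of at least 1.5, against 8.41% of all features. The median log2 change was 0.34 over the 5 DELLA genes and 0.14 over the 9 genes, against 0.04 over all features. The count of 4 became 2 without labelled mutant array 1, 3 or 5 or without wild type 2 and 5, and 1 with arrays 3 numbers apart averaged, where GAI alone passed. Seed markers were higher and root hair markers lower on the same arrays, and their part in the DELLA values was not tested. In RNA from whole hypocotyls, fewer cells of a type and less RNA per cell cannot be told apart.

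**Figure D1:**
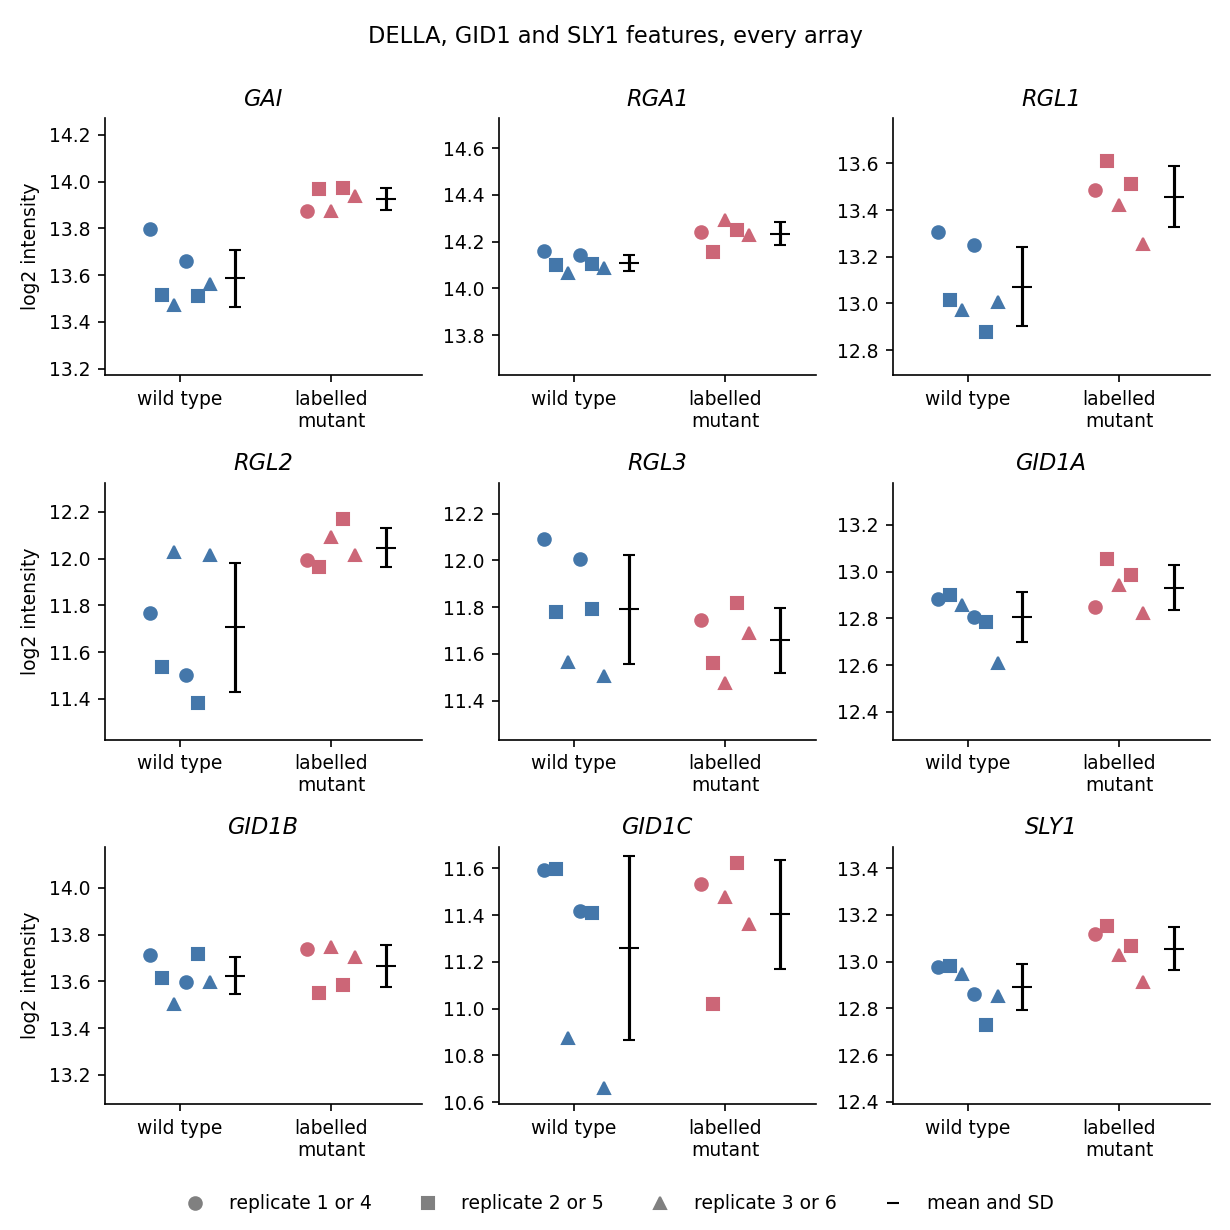
Log2 intensity of the 9 genes on every array, wild type (blue, 6 arrays) and labelled mutant (red, 5 arrays), with the mean and SD beside the points. Each panel spans the same height in log2 units and marker shape gives the replicate number; only for GAI do the 5 labelled mutant arrays all lie above the highest wild-type array.

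GAI (AT1G14920), the DELLA gene named for its gibberellin-insensitive mutant, had the lowest p of the 9. Its log2 intensity in wild type ran from 13.47 through a median of 13.54 to 13.80. On labelled mutant arrays 1, 2, 3, 5 and 6 it was 13.87, 13.97, 13.88, 13.97 and 13.94. The groups did not overlap, which held towards higher values for 10.3% of all features. GAI rose by 0.34 ± 0.060 (log2, SE), or 1.27-fold with a 95% interval of 1.16 to 1.39, at an adjusted p of 0.0014. Without any 1 array the change lay between 0.32 and 0.38 and passed in all 11 cases. The highest wild-type array was number 1, and the gap from it to the lowest labelled mutant array was smaller than the wild-type range.

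RGL1 (AT1G66350), a DELLA gene known from flowers and germinating seeds, showed the largest rise of the 9. Wild type ran from 12.88 through 13.01 to 13.31, with arrays 1 and 4 highest. Labelled mutant arrays 1, 2, 3, 5 and 6 read 13.48, 13.61, 13.42, 13.51 and 13.26. All but array 6 lay above every wild-type array, so the groups overlapped by that array alone. RGL1 rose by 0.38 ± 0.087 (log2, SE), or 1.31-fold with an interval of 1.14 to 1.49, at an adjusted p of 0.00638. The call held without any 1 array, at changes of 0.35 to 0.43. With arrays 3 numbers apart averaged the change was 0.39 at an adjusted p of 0.0516.

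RGA1 (AT2G01570), with GAI the main DELLA repressor of stem elongation, rose least of the 4. Its wild-type values were close together, from 14.06 through 14.10 to 14.16. Labelled mutant arrays read 14.24, 14.16, 14.29, 14.25 and 14.23 in the order of their numbers. Array 2 lay just below the highest wild-type array and the other 4 above it. RGA1 rose by 0.13 ± 0.038 (log2, SE), or 1.09-fold with an interval of 1.03 to 1.16, at an adjusted p of 0.0261. The call ended without labelled mutant array 1, 3 or 5, at adjusted p values of 0.0581, 0.0682 and 0.0538. It also ended with wild type 2 and 5 left out (0.0796), wild type 3 and 6 left out (0.0841), or arrays 3 numbers apart averaged (0.113).

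RGL2 (AT3G03450), the DELLA repressor best known for holding back germination, had a split wild type. Wild-type arrays 3 and 6 were at 12.03 and 12.01, and arrays 1, 2, 4 and 5 at 11.77, 11.54, 11.50 and 11.38. Labelled mutant arrays read 11.99, 11.96, 12.09, 12.17 and 12.02. Wild type 3 and 6 thus lay within the labelled mutant range, and the other 4 below all of it. RGL2 rose by 0.34 ± 0.12 (log2, SE), or 1.27-fold with an interval of 1.06 to 1.51, at an adjusted p of 0.0450. The call held without wild type 3 or 6 and ended in the other 9 fits without 1 array, at adjusted p values up to 0.0941. It also ended with arrays 3 numbers apart averaged, where the change was 0.33 at an adjusted p of 0.145. Adjusted p was 0.0522 with arrays centred on the 75th percentile. Without wild type 3 and 6 the change was 0.50, and without wild type 2 and 5 it was 0.22 at an adjusted p of 0.158. Seed markers, which were higher on labelled mutant arrays, were lowest in wild type 2 and 5 (mean log2 of 12.00 and 11.84, against 12.46 to 12.61 on the other 4). The part of seed transcripts in the RGL2 rise was not tested.

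RGL3 (AT5G17490), a DELLA gene known for a role in jasmonate responses, did not pass. In wild type it ran from 11.51 through 11.78 to 12.09, with arrays 1 and 4 highest and 3 and 6 lowest. Labelled mutant arrays read 11.74, 11.56, 11.48, 11.82 and 11.69. All but array 5 lay below the wild-type median, and the groups overlapped. The log2 change was -0.13 ± 0.11 (SE), with a 95% interval of -0.37 to 0.11 and an adjusted p of 0.372. In the alternatives run, the change lay between -0.26 and -0.07.

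**Figure D2:**
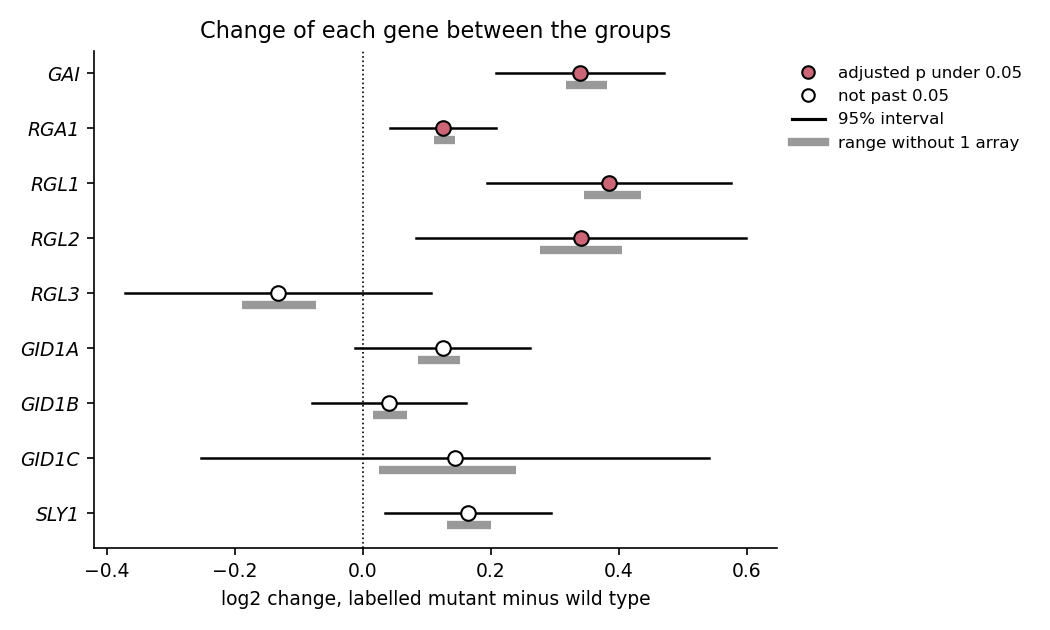
Log2 change of each gene (labelled mutant minus wild type) with its 95% interval as a thin line, and as a grey bar the range of that change when 1 of the 11 arrays is left out. Filled points, those of GAI, RGA1, RGL1 and RGL2, passed an adjusted p of 0.05; the GID1C interval, from -0.25 to 0.54, is the widest.

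None of the 3 receptor genes passed. GID1A (AT3G05120) and GID1C (AT5G27320) encode the receptors known to matter most for stem growth, and GID1B (AT3G63010) a receptor noted in Arabidopsis for its high affinity for gibberellin. GID1A ran from 12.61 through 12.83 to 12.90 in wild type and read 12.85, 13.05, 12.94, 12.98 and 12.82 on labelled mutant arrays. Of those arrays 3 lay above the highest wild-type array. Its log2 change was 0.13 ± 0.062 (SE), with an interval of -0.01 to 0.26 and an adjusted p of 0.144.

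GID1B had one of the narrowest intervals. Wild type ran from 13.50 through 13.61 to 13.72, and labelled mutant arrays read 13.74, 13.55, 13.75, 13.58 and 13.71. The groups covered nearly the same range. The log2 change was 0.04 ± 0.055 (SE), with a fold between 0.947 and 1.12 at 95% and an adjusted p of 0.598.

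GID1C varied most between arrays of 1 group. In wild type, arrays 3 and 6 were at 10.87 and 10.66, and the other 4 between 11.41 and 11.60. Labelled mutant arrays read 11.53, 11.02, 11.48, 11.62 and 11.36. Array 2 was low, yet above both low wild-type arrays. The log2 change of 0.14 ± 0.18 (SE) had an adjusted p of 0.568 and an interval from 0.840-fold to 1.45-fold. Without wild type 3 and 6 the change was -0.10, so its direction rests on these arrays.

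SLY1 (AT4G24210) missed the threshold narrowly. Wild type ran from 12.73 through 12.90 to 12.98. Labelled mutant arrays read 13.12, 13.15, 13.03, 13.07 and 12.91, all above the wild-type median and 4 of 5 above the highest wild-type array. The log2 change was 0.16 ± 0.059 (SE), or 1.12-fold with an interval of 1.02 to 1.23, at an adjusted p of 0.0534. It passed in 6 of 26 alternatives, among them median centring (0.18, adjusted p 0.0326) and the fit without labelled mutant array 6 (0.20, adjusted p 0.0239). In the others it did not pass, with a limma adjusted p of 0.121 without labelled mutant array 2 and 0.0869 with arrays 3 numbers apart averaged.

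Wild-type arrays sharing a place in the numbering resembled each other in several of the 9 genes. For RGL3 the means of arrays 1 and 4, 2 and 5, and 3 and 6 were 12.05, 11.78 and 11.54, while arrays of 1 such pair differed by at most 0.08. For GAI they were 13.73, 13.51 and 13.52, and for RGL1 13.28, 12.95 and 12.99, so that arrays 1 and 4 came nearest to the labelled mutant. For RGL2 arrays 3 and 6 came nearest, at 12.02. GID1C was low on the arrays where RGL2 was high, at 10.77 against 11.51 and 11.50. The wild-type SD ran from 0.04 for RGA1 to 0.39 for GID1C. On labelled mutant arrays it ran from 0.05 for GAI and RGA1 to 0.23 for GID1C.

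Whether DELLA genes changed unequally was asked from their log2 ratio within each array. Of 13 pairs compared, 10 of DELLA genes and 3 of receptors, 3 passed a two-sided exact permutation test over the 462 splits of the arrays, adjusted over the 13 pairs. The GAI to RGL3 difference moved from 1.80 ± 0.15 (SD, n = 6) to 2.27 ± 0.13 (SD, n = 5), a shift of 0.47 (exact p = 0.00433, adjusted p = 0.0281). For RGL1 and RGL3 the shift was 0.52, from 1.28 ± 0.15 to 1.80 ± 0.19, at the smallest p the 462 splits allow (exact p = 0.00216, adjusted p = 0.0281). The splits treat all arrays as independent, although wild-type arrays 3 numbers apart resembled each other, most clearly in RGL3. In both pairs the groups did not overlap. How often other gene pairs on the array pass this test or separate the groups was not computed.

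GAI also rose more than RGA1, by 0.21 ± 0.054 (SE of the difference; exact permutation p = 0.00866, adjusted p = 0.0375), though the groups overlapped. That call ended in 10 of the 11 fits without 1 array, at adjusted exact p values up to 0.103, and the GAI and RGL1 calls against RGL3 each ended in 7. RGL2 against RGL3 gave a shift of similar size, 0.47 ± 0.19, that did not pass (adjusted exact p = 0.122). GAI and RGL1 differed by -0.04 ± 0.064 and GAI and RGL2 by 0.00 ± 0.13 (log2, SE). The receptor pairs shifted by 0.08, -0.02 and -0.10 (GID1A against GID1B, GID1A against GID1C, GID1B against GID1C), with adjusted exact p values of 0.616 to 0.996. With arrays 3 numbers apart averaged, 3 against 3, the smallest exact p is 0.1, and the shifts of the 3 passing pairs were 0.45, 0.51 and 0.20. Without 1 array in turn between 0 and 3 pairs passed. At 5 arrays against 5 the smallest exact p is 0.00794. With that limit 3 pairs passed without wild type 1 and 0 without any other single wild-type array. The part of fewer splits in these counts was not tested.

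**Figure D3:**
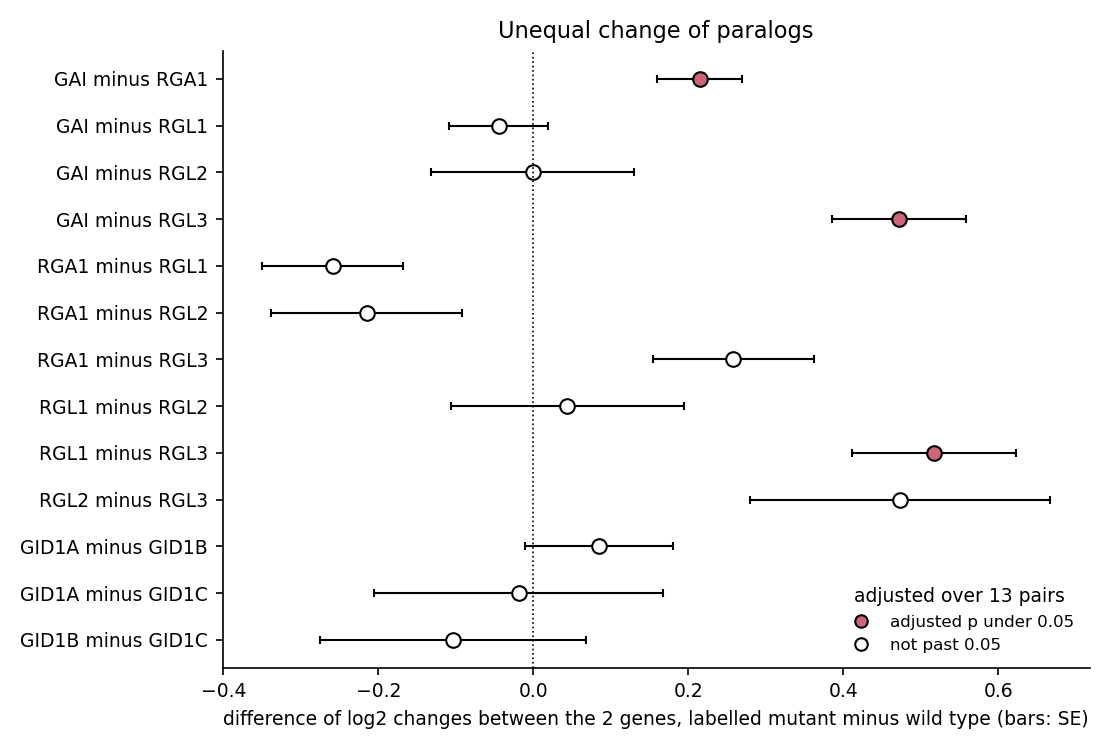
Difference of log2 changes (labelled mutant minus wild type) within each of the 13 pairs of paralogs, with its SE. Filled points passed the exact permutation test adjusted over the 13 pairs; GAI and RGL1 each shifted against RGL3, by 0.47 and 0.52, and GAI against RGA1, by 0.21.

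Outside the 9 genes, calls went in both directions and most of the listed genes did not pass. The 6 other lists hold 73 genes, each counted once by its brightest feature. The largest list, of 25 genes with SCL3 included, was drawn by GRAS family and not by a role in the gibberellin pathway. Of the 73 genes 22 were higher and 10 lower, against 19.4% and 13.1% of all genes (limma, adjusted p of 0.05). The total of 32 became 21 without labelled mutant array 1 and 13 with arrays 3 numbers apart averaged.

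Among 14 gibberellin synthesis genes 5 were higher and 2 lower, with a median log2 change of 0.03. GA1, the enzyme of the first committed step, rose by 0.38 ± 0.10 (SE), and GA20OX3, a 20-oxidase of the late steps, by 1.24 ± 0.26. For GA20OX3 wild type 3 and 6 were at 11.49 and 11.64 and the other wild-type arrays at 10.37 to 10.57. Labelled mutant array 2, at 11.60, lay below wild type 6, so the groups overlapped. GA2, ent-kaurene synthase, fell by 0.28 on the log2 scale. GA3OX2, a 3-oxidase that forms active gibberellin, changed by -1.43 ± 0.31 and stood highest in wild type 2 and 5, at 11.35 and 11.30. GA3OX1 (-0.01, adjusted p 0.948) and GA20OX2 (0.06, adjusted p 0.699) did not pass. Both are also on the list below of genes induced early by DELLA proteins.

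Of 11 inactivation genes 2 were higher and 3 lower, with a median of -0.03. The 2-oxidase gene ATGA2OX1 fell most, with a change of -1.69 ± 0.48 (SE) at a limma adjusted p of 0.019. It stood highest in wild type 2 and 5, at 12.24 and 12.03. GA2OX8, a 2-oxidase that acts on gibberellin precursors, changed by -0.76 ± 0.12 (SE), and its other features by -1.19 and -1.52. The methyltransferase gene GAMT2 changed by -0.26. ATGA2OX3 (0.24) and the P450 gene CYP714A1 (0.35) rose. GAMT2 and ATGA2OX3 lie in the dimmest 25% of features, with a mean log2 intensity below 9.18.

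Genes that modify or assist DELLA proteins had 4 of 11 higher and 0 lower, with a median of 0.16. SCL3, a GRAS protein that opposes DELLA action, rose by 0.28 ± 0.055 (SE), and the zinc finger gene IDD1, whose family binds DELLA proteins, by 0.22 ± 0.045. Of 7 transcription factor genes whose products DELLA proteins bind or restrain, 1 was higher and 2 lower, with a median of -0.03. The growth factor gene PIF4 changed by -0.46 ± 0.16 and by -0.67 for its other feature, and the GAMYB-like MYB65 by -0.45 ± 0.11. The PIF4 call (adjusted p 0.0482) ended in 9 of the 11 fits without 1 array, at adjusted p values up to 0.0998, and without wild type 2 and 5 its change was -0.29 at an adjusted p of 0.178. The brassinosteroid factor gene BZR1 rose by 0.29 in its brighter feature and fell by 1.79 on the log2 scale in its dimmer one, so the gene has no single direction here.

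Of 11 genes known to be induced early by DELLA proteins in seedlings, 3 were higher and 0 lower, with a median of 0.13. The list includes GID1A, GID1B, SCL3, GA3OX1 and GA20OX2, which are also described above. LBD40, a LOB domain factor, rose most, from 11.40 ± 0.25 to 12.68 ± 0.15 (SD), a change of 1.28 ± 0.12 (SE) at an adjusted p of 9.87e-06. Among 25 other GRAS family genes, SCL3 again included, 9 were higher and 3 lower, with a median of 0.12. AT5G59450 rose by 0.45, and AT2G29060 and AT4G08250 changed by -0.39 and -0.20.

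**Figure D4:**
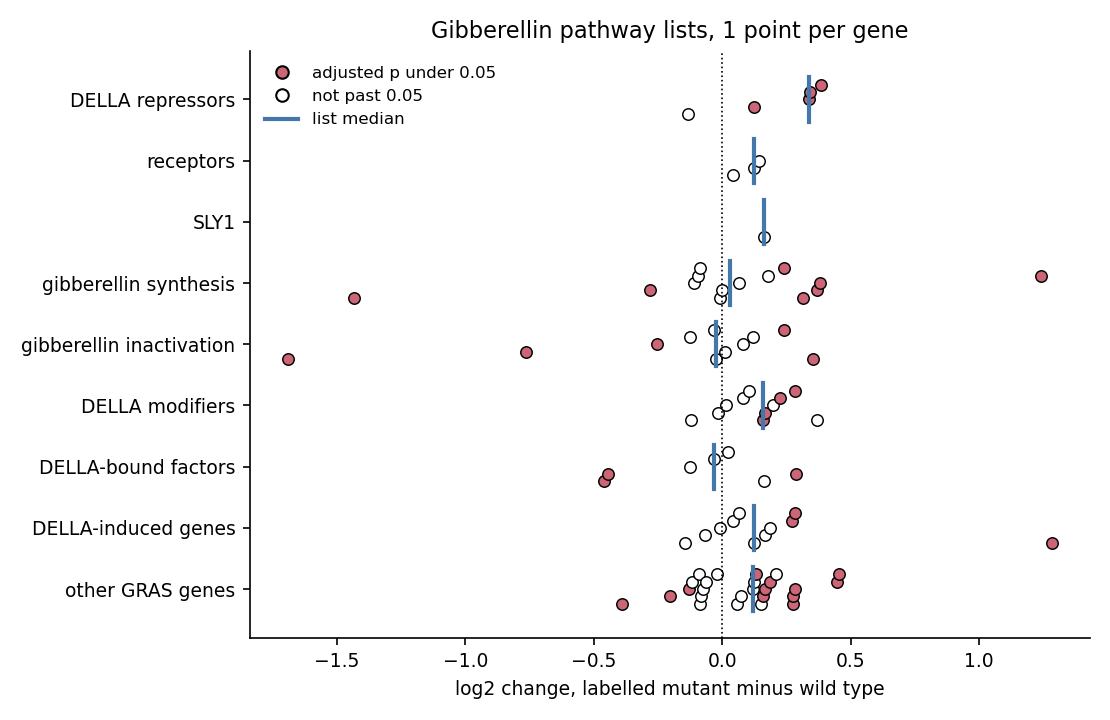
Log2 change of each gene (labelled mutant minus wild type) in the DELLA, receptor and SLY1 groups and in the 6 other lists. Each gene has 1 point at its brightest feature, and the list median is a blue line. Filled points passed an adjusted p of 0.05; the DELLA median of 0.34 lies above the other medians, which run from -0.03 to 0.16.

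The genes most like each raised DELLA gene were found by the mean absolute difference over the 11 arrays of log2 values relative to the wild-type mean. For GAI these were NAC101, a xylem vessel regulator, at 0.042, AT2G15320 at 0.048 and AT1G70950 at 0.049. RGL1 was the member nearest to GAI, at 0.080. For RGA1 the nearest were VRN1, a vernalization regulator (0.021), AT5G46910 (0.021) and the GRAS gene SCL14 (0.022). Its nearest member was the receptor gene GID1B, at 0.0635. For RGL1 they were the expansin gene EXPA21 (0.050), AT1G78760 (0.056) and AT4G17440 (0.056). RGL2 had no gene as near, with AT4G22380 at 0.065, AT5G33234 at 0.070 and AT5G36296 at 0.073, and GAI at 0.171 as its nearest member. Of these similar genes, AT5G46910 and AT5G36296 did not pass the limma test (adjusted p 0.0522 and 0.055). AT1G78760, AT5G33234 and AT5G36296 lie in the dimmest 25% of features.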

How the data were processed

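Single-colour NimbleGen arrays of 1 chip were used, 6 wild type and 5 labelled mutant. The authors deposited 1 linear intensity per feature and array, summarised with RMA per the submitters' processing notes; its version and settings are not given, nor is the genome build. The median intensity of an array was 3775.6 to 3909.2. The member features rest on 3 probes (RGL3 and GID1C) or 4 probes. The number of arrays limits the precision, and p-values measure the spread between these arrays, which the labels describe as separate collections. Levels of different genes were not compared, since probes differ in response.

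The groups follow the labels. The test was limma 3.58.1 (R 4.3.3, lmFit and eBayes) on log2 intensity over all 37118 features, with Benjamini-Hochberg adjustment. Pairs of paralogs were compared with exact permutation tests. Each method was tested on simulated data. The simulated arrays for limma had independent noise, without the likeness seen between wild-type arrays 3 numbers apart. Symbols came from the RefSeq table of TAIR10.1. The members and the gene lists were chosen with earlier results of these data known. Beside the 9 members and PME3, up to 2 higher and 2 lower genes of lowest p were named per list, and the 3 most similar genes per passing member. GA3OX1, GA20OX2, ATGA2OX1 and second features were named outside that rule, after their values were seen. Alternatives covered normalization, dim features, variance models, averaging, a replicate block and left-out arrays; leaving out wild type 2 and 5, or 3 and 6, was chosen after seeing the data. A replicate 4 of the mutant is not analysed here.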

Additional observations from a re-analysis of the deposited data

Results flagged for a closer look

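Over the 48 genes named by rule and 2 groups, 3 arrays stood apart from the rest of their group by Dixon's criterion. Chance gives about 1 in 20 of the 96 groups tested. GA2 was lowest in wild type 5, at 11.84 against 12.05 for the next array (log2). BAN, a seed coat gene, was highest in wild type 1, at 7.92 against 7.81. AT2G15320, one of the genes most like GAI, was lowest on labelled mutant 6, at 14.36 against 14.47. None of the 9 DELLA, receptor and SLY1 features had such an array in either group.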

How the results depend on the processing

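The 4 DELLA rises kept their direction in every alternative run, except that RGL2 was not tested without the dimmest 50%. The number of DELLA genes passing fell from 4 to 2 without wild type 2 and 5, to 1 (GAI) with arrays 3 numbers apart averaged, and to 0 with a fold of at least 1.5; it was 2 to 4 without 1 array in turn. Of receptors and SLY1, 1 gene (SLY1) passed with median centring, with the dimmest 50% left out, with trend and robust variance and with array weights, and 0 to 1 without 1 array. Features passing fell from 12033 to 5680 without the dimmest 50%, 7174 after averaging and 3122 with the fold minimum. Passing genes of the 6 other lists fell from 32 to 18, 13 and 5 in the same order, and were 21 to 33 without 1 array. Passing pairs of paralogs numbered 0 after averaging, 0 without wild type 2 and 5, 5 without wild type 3 and 6, and 0 to 3 without 1 array. After averaging, the smallest exact p of 0.1 let no pair pass. With 4 wild-type arrays against 5 the smallest exact p is 0.00794, the same for the count of 5 as for the count of 0. The part of fewer splits in these counts was not tested.

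Values that turned direction, none of which had passed except BZR1, were BZR1 (-0.75) and PORA (0.105) with features averaged, GID1C (-0.10) and PORA (0.021) without wild type 3 and 6, and 4 pairs. GAI minus RGL2 was 0.0033 with the pseudocount of 64, 0.085 without wild type 2 and 5, and -0.089 to 0.054 without 1 array. Without wild type 3 and 6, RGL1 minus RGL2 was -0.16, GID1A minus GID1C 0.19 and GID1B minus GID1C 0.11; without 1 array they were -0.041 to 0.12, -0.15 to 0.068 and -0.17 to 0.011. Averaging features set BZR1 by its dim feature; the other causes were not tested. Same-numbered arrays of the groups had deviations correlated at -0.06 to 0.29, so the numbers do not pair the samples; with the replicate block 2 DELLA genes (GAI and RGL1) passed, and 3 of the 5 mutant arrays correlated best with wild type 1.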
